A study of Homo sapiens with 6 samples.

Results

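TEF and 9 further genes of the output arm of the circadian clock, DBP, HLF, NFIL3, PER1, PER2, PER3, NR1D1, NR1D2 and BHLHE40, were examined in DLD1, a long-established cell line from a human colorectal adenocarcinoma. The cells carried lentivirus with a short hairpin RNA (shRNA) against the kinase gene CDKL1 or with a control shRNA, and total RNA of 3 samples per group was hybridised to 1 Affymetrix array each. The labels name no age, time of day or synchronisation, and do not say whether the samples of a group came from separate infections, so the errors given may in part be technical. Members were taken by gene symbol, from every probe set annotated to that symbol alone. That gave 9 of the 10 named genes, with 25 probe sets, among 18132 genes tested. NR1D1 had 0 such probe sets: its 1 probe set is also annotated to THRA, so no value is given for NR1D1. TEF was chosen by its measured values, being lower in CDKL1 shRNA than in control arrays, and the group around it was named with these results known. The differences between the groups are therefore descriptions of the members and carry no p-values.

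The circadian clock is a feedback loop of transcription. CLOCK and BMAL1 bind E-box elements and drive the PER and CRY genes, whose proteins then repress CLOCK and BMAL1, and they also drive a set of output regulators. Among these, TEF, DBP and HLF are the PAR-domain basic leucine zipper factors, which activate genes through D-box elements, while NFIL3 (also called E4BP4) represses through the same elements. NR1D1 and NR1D2 (REV-ERB alpha and beta) are nuclear receptors that repress BMAL1 and NFIL3, and BHLHE40 (DEC1) competes at E-boxes. In colon epithelium the clock is known for daily rhythms of cell division and metabolism.

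The promoters of these genes are shown first because E-boxes and D-boxes are the elements through which this arm of the clock works. Their letters lie in windows of genes that fell and of genes that were not called, and not in the window searched for DBP, which fell. A relation of the letters to the changes was not tested. The RefSeq promoter table (GRCh38.p14) held 15 windows for all 10 genes, each with 250 bases before and 50 after an annotated transcript start. The searched letters were CACGTG for the E-box, CACGTT for a variant called the E'-box that differs in its last base, and TTATGTAA, TTACGTAA or TTATGCAA for the D-box, on both strands. No match of one motif overlapped a match of another. Below, each sequence is written 5' to 3' in the direction of the gene, with matches in capitals. Bases before the start are printed, and the PER2 stretch runs on to the end of a match that spans the start. TEF has 2 annotated starts, at chr22:41367205-41367454 and chr22:41381692-41381941 (both plus strand), and each has an E-box. PER1 (chr17:8152405-8152654, minus strand) and PER2 (chr2:238288606-238288860, minus strand) each carry an E-box or E'-box and a D-box. NR1D2, by its second start (chr3:23945871-23946120, plus strand), has both as well, and it is shown as a gene that was not called, and PER3 (a stretch of its promoter, chr1:7784094-7784141, plus strand) has a D-box.
TEF start 1: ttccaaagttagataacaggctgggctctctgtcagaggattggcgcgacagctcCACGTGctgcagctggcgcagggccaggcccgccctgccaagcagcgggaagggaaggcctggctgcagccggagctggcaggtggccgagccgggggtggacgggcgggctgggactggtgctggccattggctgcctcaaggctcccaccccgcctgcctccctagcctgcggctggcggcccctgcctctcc
TEF start 2: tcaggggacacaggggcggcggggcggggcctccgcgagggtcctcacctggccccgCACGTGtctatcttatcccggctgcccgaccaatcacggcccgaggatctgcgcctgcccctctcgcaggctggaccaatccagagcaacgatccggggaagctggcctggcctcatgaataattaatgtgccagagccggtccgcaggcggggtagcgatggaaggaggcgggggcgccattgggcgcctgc
PER1: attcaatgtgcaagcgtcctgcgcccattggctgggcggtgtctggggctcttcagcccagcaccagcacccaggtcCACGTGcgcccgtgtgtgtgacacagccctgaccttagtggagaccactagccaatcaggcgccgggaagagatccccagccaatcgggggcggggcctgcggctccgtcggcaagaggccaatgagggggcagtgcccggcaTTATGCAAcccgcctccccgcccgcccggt
PER2: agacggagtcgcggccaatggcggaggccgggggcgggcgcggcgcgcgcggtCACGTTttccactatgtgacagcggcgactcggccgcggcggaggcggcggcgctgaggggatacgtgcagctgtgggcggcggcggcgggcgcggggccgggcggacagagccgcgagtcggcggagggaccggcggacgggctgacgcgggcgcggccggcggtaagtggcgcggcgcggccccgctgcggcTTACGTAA
NR1D2 start 2: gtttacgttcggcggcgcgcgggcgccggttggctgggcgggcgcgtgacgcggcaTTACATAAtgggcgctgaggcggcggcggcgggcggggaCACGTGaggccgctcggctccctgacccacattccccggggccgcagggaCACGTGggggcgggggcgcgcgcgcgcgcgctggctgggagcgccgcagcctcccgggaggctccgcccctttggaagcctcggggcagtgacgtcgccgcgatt
PER3: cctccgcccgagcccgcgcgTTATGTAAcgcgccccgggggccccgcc

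An E-box was found in 5 of the 15 windows, those of TEF (both starts), PER1, NR1D2 and BHLHE40, against 7.26% of all 35116 windows in the table. In TEF the E-boxes began 195 and 193 bases before the starts, in PER1 173 bases before, in NR1D2 155 and 105 bases before and in BHLHE40 245 bases before. The E'-box lay in the windows of PER2 and NR1D1, 197 and 168 bases before the start, against 5.34% of all windows. D-box letters were in 4 of the 15 windows and in 1.84% of all windows. They began 30 bases before the start in PER1, 177 bases before in PER3, 194 bases before in the window of the second start of NR1D2, and 3 bases before in PER2. For DBP, HLF and NFIL3 none of these letters was in the windows searched. Only the letters listed above were searched. TTACGCAA, which was not among them, occurs in the window of the first NFIL3 start. A match is a description of the letters, not a bound site.

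**Figure D1:**
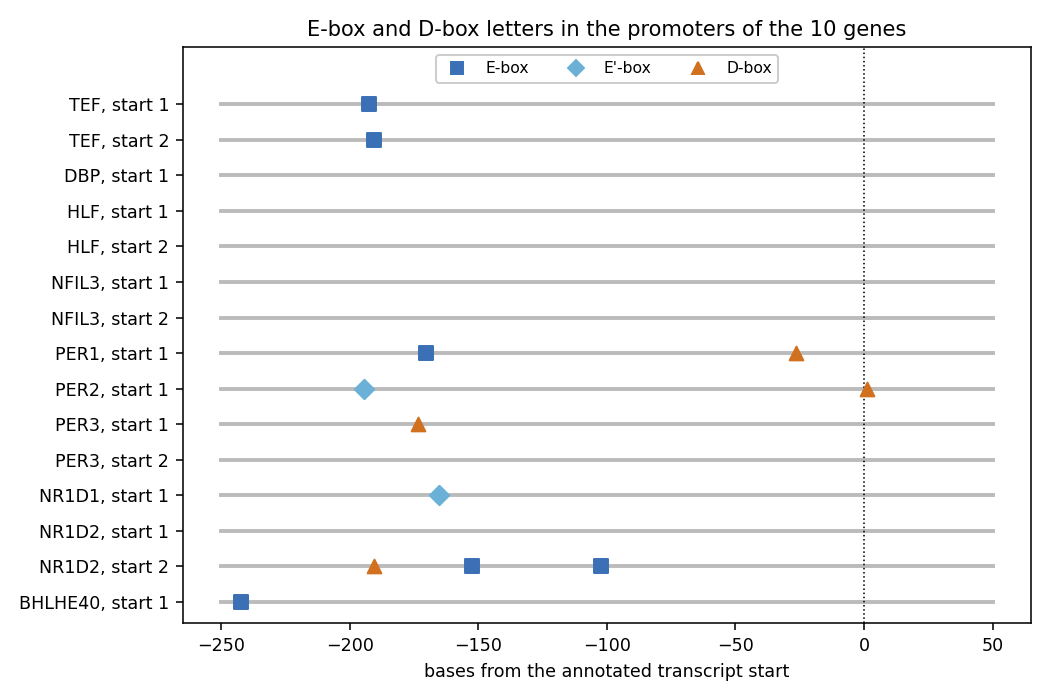
Positions of E-box, E'-box and D-box letters (markers) in the 15 promoter windows of the 10 genes (grey lines), in bases from the annotated start (dotted line). Matches lie in 8 of the windows, and both TEF starts have an E-box near 195 bases upstream.

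The largest difference among the members was in TEF, which was 2.29-fold lower in CDKL1 shRNA arrays, and its relatives went different ways. DBP and the period genes PER2 and PER1 were also lower, NFIL3 was slightly higher, and HLF, PER3, NR1D2 and BHLHE40 were not called. Each gene was read from its brightest probe set, on the log2 scale that the authors made with RMA, so a difference of 1 is a factor of 2. A gene was called when its Benjamini-Hochberg adjusted p over all genes (limma) was below 0.05. By that rule 4 members were lower and 1 was higher, where 7.79% and 8.97% of all genes were lower and higher. CDKL1 shRNA arrays lay entirely below control arrays for 5 members and entirely above for 2, where 17.6% and 18.1% of all genes did so (35.7% in either direction). The members' median log2 change was -0.15 and that of all genes -0.014. The contrast had served to choose the members, so nothing is read from these shares.

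TEF, a D-box activator first described in pituitary thyrotrophs, had log2 values of 8.53, 8.55 and 8.43 in the control arrays and 7.22, 7.38 and 7.34 in the CDKL1 shRNA arrays. The groups lay 1.05 apart at their closest arrays. The means were 8.51 ± 0.06 and 7.31 ± 0.08 (SD, n = 3 each), a log2 change of -1.20 (SE 0.06), or -56.3%. In all, 3 of the 18132 genes fell further. Leaving out any 1 array gave -1.23 to -1.15. The second TEF probe set did not share this fall. It read 6.48, 6.39 and 6.42 in control arrays and 6.37, 6.41 and 6.12 in CDKL1 shRNA arrays, with overlapping groups and a log2 change of -0.13 (SE 0.08). The mean of both probe sets fell by 0.66. The transcripts that each TEF probe set reads were not analysed here.

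DBP, the albumin D-box binding protein and the classic rhythmic output of the clock in liver, was read at 7.54, 7.30 and 7.52 in control arrays and at 6.94, 7.01 and 6.96 in CDKL1 shRNA arrays. The groups did not overlap. The log2 change was -0.48 (SE 0.07), a 1.40-fold fall. Its other probe set gave 7.35, 7.32 and 7.45 against 6.95, 7.08 and 6.94, a log2 change of -0.38 (SE 0.06). DBP was thus the member with more than 1 probe set in which every probe set was called. Both of its probe sets carry the suffix _s, which marks probes that can bind transcripts of more than 1 gene.

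HLF, the third PAR factor, was read by 4 probe sets that disagreed in sign. The brightest gave 6.00, 5.59 and 6.06 in control arrays and 5.99, 5.94 and 5.91 in CDKL1 shRNA arrays. Control replicate 2 was low, and the groups overlapped. The log2 change was 0.07 (SE 0.12). It turned to -0.079 without control replicate 2. The next probe set gave 0.16 (SE 0.11). The remaining 2 probe sets gave -0.28 (SE 0.11) and -0.22 (SE 0.07), but at means within the 2.98 to 4.92 range of the array's background controls (the probe sets whose probes hold 10 to 16 G or C). Levels of HLF are thus uncertain here, and no direction can be given.

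NFIL3, the repressor at D-boxes, had values of 8.19, 8.07 and 8.01 in control arrays and 8.26, 8.39 and 8.31 in CDKL1 shRNA arrays. The lowest CDKL1 shRNA array stood 0.07 above the highest control array. NFIL3 rose by 0.23 (SE 0.06), or 1.17-fold, and has 1 probe set. In the control group, omitting replicate 2 (0.22) or 3 (0.19) ended its call, and so did omitting any CDKL1 shRNA array (0.26 for replicate 1, 0.20 for replicate 2 and 0.24 for replicate 3). It remained without control replicate 1 (0.28). The call was also lost after a further quantile normalisation (0.20). Among the 4 D-box factors, then, TEF and DBP were lower, the repressor was higher by a small amount and HLF could not be placed.

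**Figure D2:**
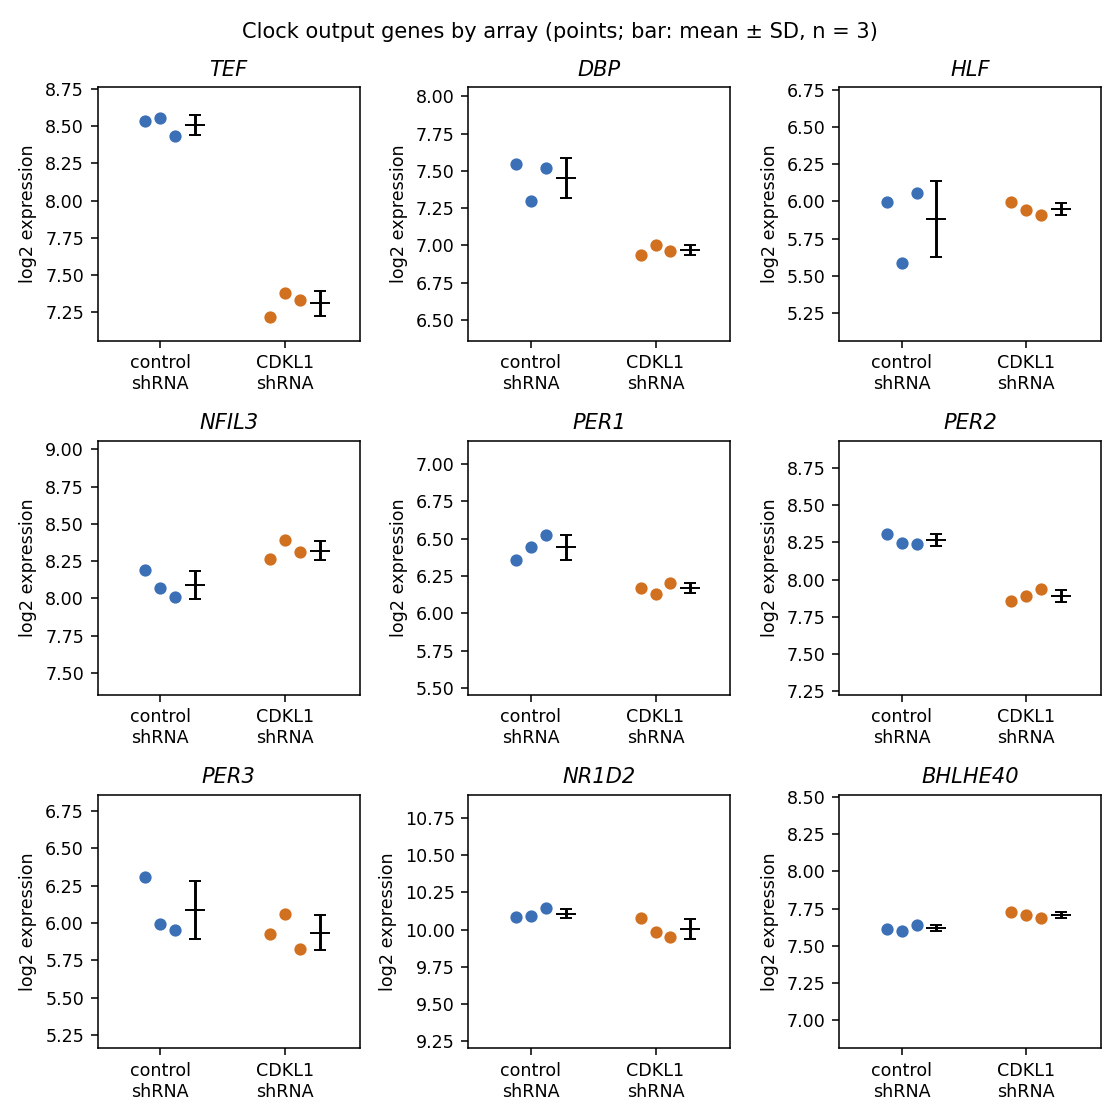
Log2 expression of the 9 measured genes on each array (points; blue for control shRNA, orange for CDKL1 shRNA), with mean ± SD (n = 3) beside them; each panel spans the same log2 range. TEF separates by over 1 log2 unit, DBP, PER2 and PER1 by less, and the groups overlap for HLF and PER3.

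The period genes encode the repressors of CLOCK and BMAL1. PER2 was read at 8.31, 8.25 and 8.24 in control arrays and at 7.85, 7.89 and 7.93 in CDKL1 shRNA arrays. The groups lay 0.31 apart at their closest, and the SD within each was 0.04. The log2 change was -0.37 (SE 0.05), or -22.7%. The other 4 PER2 probe sets were not called and ran from -0.11 to 0.013, all with overlapping groups, and 1 of them lay in the background range. The mean of all 5 gave -0.12, which was not called. The fall of PER2 came from 1 probe set, whose suffix _s marks possible binding to other transcripts.

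PER1, the period gene that also responds directly to hormones and growth factors, had values of 6.36, 6.44 and 6.53 in control arrays and 6.17, 6.13 and 6.20 in CDKL1 shRNA arrays. The groups did not overlap, with a gap of 0.16. PER1 fell by 0.28 on the log2 scale (SE 0.05), a 1.21-fold fall. Its other probe sets gave -0.07 (SE 0.09) and 0.05 (SE 0.07). The mean of the 3 gave -0.10 and was not called. The call was also lost without control replicate 2 (-0.28) or CDKL1 shRNA replicate 2 (-0.26). Leaving out either array left 3 members called in place of 5, where 10.1% and 11.2% of all genes were called.

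PER3 had values of 6.31, 5.99 and 5.95 in control arrays and 5.92, 6.06 and 5.82 in CDKL1 shRNA arrays. Control replicate 1 stood above the rest, and the groups overlapped. The log2 change was -0.15 (SE 0.11), and -0.04 without control replicate 1. All 3 PER3 probe sets had a negative sign, at -0.15, -0.15 and -0.19, and none was called. The 3 period genes shared the negative sign by their brightest probe sets, and 2 of them were called.

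NR1D2, the nuclear receptor that represses at ROR elements, read 10.08, 10.09 and 10.14 in control arrays and 10.08, 9.98 and 9.95 in CDKL1 shRNA arrays. The CDKL1 shRNA arrays lay below by a gap of 0.0079 only. The log2 change was -0.10 (SE 0.05), not called. Its other 3 probe sets gave -0.09, -0.037 and 0.0091 with overlapping groups. BHLHE40, the E-box competitor, read 7.61, 7.60 and 7.64 against 7.72, 7.71 and 7.69. All CDKL1 shRNA arrays were higher, by a gap of 0.05, and the log2 change was 0.09 (SE 0.04), not called. For both genes the groups were separate on the arrays while the difference was small.

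**Figure D3:**
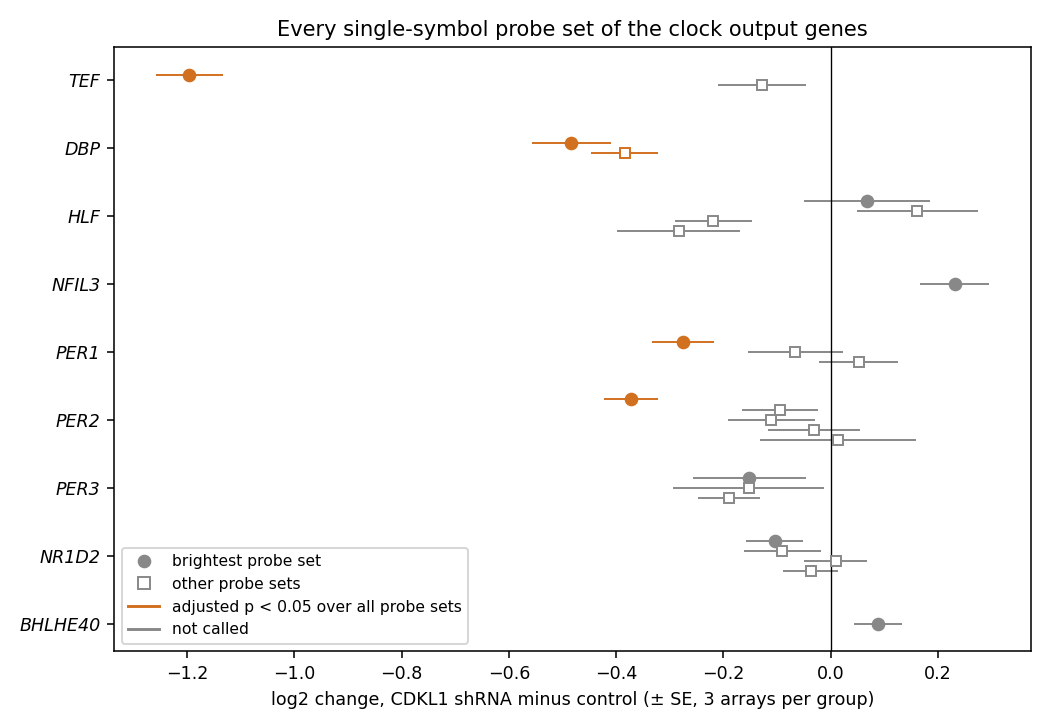
Log2 change (CDKL1 shRNA minus control, ± SE, 3 arrays per group) of each of the 25 probe sets of the 9 genes; circles are the brightest probe set of a gene, open squares the others, orange those called over all probe sets. The changes of TEF, PER1 and PER2 sit in 1 probe set each, and both DBP probe sets are lower.

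Over all 25 probe sets, 18 had a negative and 7 a positive sign. With every probe set on the array tested on its own, 5 member probe sets were lower and 0 higher, where 5.24% and 7.38% of all 49293 probe sets were (12.6% together). These 5 were both DBP probe sets and the brightest of TEF, PER1 and PER2. NFIL3 was not called over all probe sets. SE values of probe sets other than the brightest come from that fit.

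A sign of RNA quality moved with the groups. Control probe sets at the 3' and 5' ends of ACTB differed by 1.39 to 1.42 log2 units in control arrays and by 1.52 to 1.73 in CDKL1 shRNA arrays, highest in CDKL1 shRNA replicate 2 (exact two-sided permutation p = 0.1, the smallest that 3 against 3 allow). For GAPDH the same difference was 0.187 to 0.222 and 0.246 to 0.297 (exact p = 0.1). With this difference as a covariate, TEF was at -1.32 (SE 0.10) and still called. DBP (-0.52, SE 0.13), PER2 (-0.38, SE 0.09), PER1 (-0.22, SE 0.10) and NFIL3 (0.11, SE 0.11) were not called in that fit, which called 219 genes (1.21%) in place of 3040. Without CDKL1 shRNA replicate 2 the changes were -1.23 for TEF, -0.50 for DBP and -0.37 for PER2. The targeted gene, CDKL1, was not called (-0.19, SE 0.09, limma adjusted p = 0.219). Its mean of 4.27 lay inside the background range, so the knockdown could not be checked here. Epithelial markers were bright, with EPCAM at 13.52 and CDX2 at 10.67 in control arrays, while VIL1 (5.85) and LGALS4 (5.36) were dim. Of 12 epithelial markers KRT20 was higher (0.52, SE 0.05) and VIL1 lower (-0.57, SE 0.12). In all, 6 of the 12 had an unadjusted p under 0.05, for which no share of all genes was counted. Groups did not overlap for 6 of the 12, where this held for 35.7% of all genes. Among these 6 were KRT8 (-0.15), KRT18 (-0.13) and CDH1 (-0.12), lower and not called. The summed log2 values of the 12 were 122.45 to 122.71 in control and 121.77 to 122.67 in CDKL1 shRNA arrays. The part of these markers in the results was not tested. None of 9 fibroblast, 8 leukocyte and 6 endothelial markers was called by limma, and 0 of them had an unadjusted p under 0.05. Groups did not overlap for 0 fibroblast, 1 leukocyte (CSF1R) and 1 endothelial (VWF) marker. The summed values of these lists overlapped between groups, at 44.79 to 45.62 against 44.44 to 45.84 for fibroblast, 38.81 to 39.20 against 38.57 to 38.97 for leukocyte and 32.87 to 33.18 against 32.85 to 33.51 for endothelial genes. In samples of whole cultures, fewer cells that express a gene and less RNA per cell cannot be told apart.

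The rest of the clock was mixed. Its genes and those of the lists below were also chosen with earlier results of these data known. The adjusted p-values printed for them are descriptions only. Of the 14 genes of the core machinery analysed here, 2 were higher, 2 lower and 10 not called, where 16.8% of all genes were called, and their median log2 change was -0.0065. CLOCK (0.06, SE 0.05) and BMAL1 (-0.30, SE 0.09, adjusted p = 0.0695, limma), the activating pair, are named because of their role, after their values were seen, and neither was called. RORA, the nuclear receptor that activates BMAL1, fell from 11.41, 11.53 and 11.59 to 11.25, 11.12 and 11.11, a log2 change of -0.35 (SE 0.06, adjusted p = 0.0124, limma). TIMELESS, which acts mainly at the replication fork, fell by 0.29 (SE 0.06). BTRC and FBXW11, the beta-TrCP ubiquitin ligase subunits that direct PER proteins to degradation, each rose by 0.36 (SE 0.07 and 0.06).

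BTRC read 7.41, 7.48 and 7.30 in control arrays and 7.66, 7.81 and 7.81 in CDKL1 shRNA arrays. FBXW11 read 8.89, 8.90 and 8.97 against 9.16, 9.38 and 9.31. Neither gene's groups overlapped. BTRC was not called by the mean of its probe sets (0.13), whereas FBXW11 was (0.31). RORA lost its call without CDKL1 shRNA replicate 3 (-0.32), and TIMELESS without CDKL1 shRNA replicate 1 (-0.26) or replicate 3 (-0.30). TIMELESS was also not called by the mean of its probe sets (-0.24) or by its probe set without a suffix (-0.18), whereas RORA was called by the mean (-0.25). Without CDKL1 shRNA replicate 3, 2 genes of the list were called. The bright members CRY1 (-0.10), BMAL2 (a mean of 8.59 in both groups) and the PER kinase gene CSNK1D (-0.12) were not called.

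**Figure D4:**
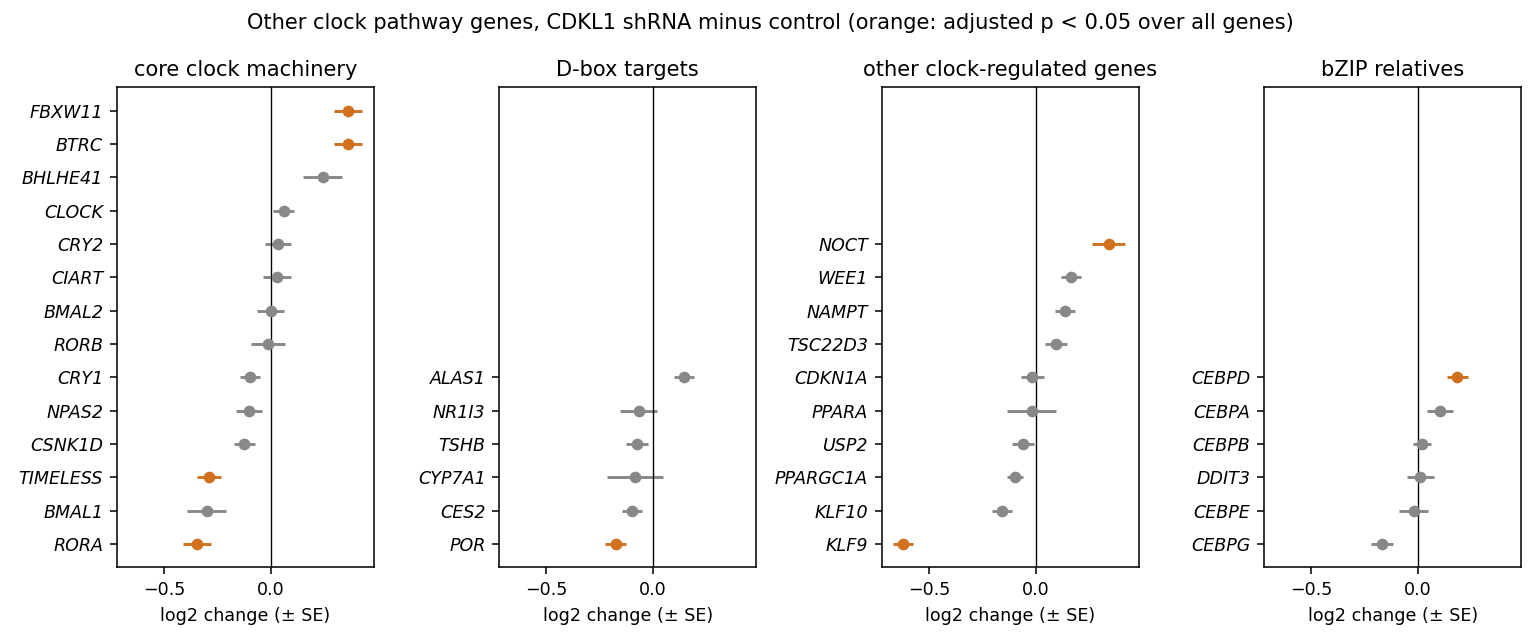
Log2 change (CDKL1 shRNA minus control, ± SE, 3 arrays per group) of the measured genes of the 4 pathway lists; orange marks genes called over all genes. Called genes lie on both sides of 0 in the core machinery, and KLF9 lies farthest from 0.

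Genes known as D-box targets in other tissues were called about as often as all genes. Of 6 measured, 1 was called, where 16.8% of all genes were, and CYP7A1 and TSHB lay in the background range. POR, the electron donor of cytochrome P450 enzymes, was lower (-0.18, SE 0.05, adjusted p = 0.0478, limma), 0 genes were higher and 5 were not called, with a median of -0.08. POR read 9.67, 9.60 and 9.60 in control arrays and 9.39, 9.49 and 9.46 in CDKL1 shRNA arrays. Its call was lost with any 1 array left out, at -0.20 to -0.15. ALAS1, the first enzyme of haem synthesis, had a positive sign (0.14, SE 0.05, adjusted p = 0.0798), and CES2 (-0.10) and NR1I3 (-0.07) were not called. Over the 6 genes, 5 changes had a negative sign and 1 a positive sign.

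Among 10 measured genes of other clock-regulated processes 1 was higher, 1 lower and 8 were not called, with a median of -0.017, near the shares of all genes (8.97% higher and 7.79% lower). KLF9, a rhythmic and glucocorticoid-responsive zinc finger factor, fell from 9.35, 9.27 and 9.25 to 8.64, 8.69 and 8.68. This was a log2 change of -0.62 (SE 0.05, adjusted p = 0.000387, limma), or 1.54-fold. KLF9 was called in each of the alternatives, which refit the same arrays, with -0.34 for the mean of its probe sets. NOCT, the rhythmic phosphatase nocturnin, rose from 6.15, 5.96 and 6.07 to 6.27, 6.51 and 6.43 (0.34, SE 0.08, adjusted p = 0.0242). The call of NOCT ended on omitting replicate 2 (0.29) or 3 (0.35) of the control group, or replicate 2 (0.29) or 3 (0.33) of the CDKL1 shRNA group, which left 1 gene of this list called. The mitotic inhibitor kinase gene WEE1 (0.17), NAMPT (0.14), which makes an NAD precursor, and KLF10 (-0.16) were near the threshold and not called, and were called when probe sets were averaged.

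The C/EBP factors are bZIP relatives that bind related sites. Of the 6 genes CEBPD was called, with 1 higher and 0 lower and a median of 0.013, a share near the 16.8% of all genes. CEBPD read 9.70, 9.82 and 9.73 in control arrays and 9.97, 9.93 and 9.89 in CDKL1 shRNA arrays, a rise of 0.18 (SE 0.05, adjusted p = 0.0444, limma). It was not called with any 1 array left out (0.16 to 0.22), nor with the further quantile normalisation (0.15), in which CEBPG was called at -0.20. The mean of the CEBPD probe sets (0.12) was not called either. Its probe set without a suffix had the opposite sign (-0.018) and was not called. CEBPB (0.017), CEBPG (-0.17) and CEBPA (0.10) were not called.

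The genes whose 6 values, each centred on the gene's own mean, lay nearest those of TEF were found over 18131 other genes by the root mean square distance over the 6 arrays. They were BUD23 (distance 0.081), which methylates ribosomal RNA, PRPF19 (0.083), which encodes a splicing factor, IL33 (0.084), which encodes a cytokine, the signalling inhibitor gene IL17RD (0.098) and PLEKHA8 (0.107), a lipid transfer protein gene. Their log2 changes were -1.13, -1.09, -1.06, -1.04 and -1.15. BUD23, the nearest, read 10.76, 10.82 and 10.76 in control arrays and 9.69, 9.62 and 9.63 in CDKL1 shRNA arrays. None of the 5 is a clock gene of the lists, and the distance mainly reflects the size of the group difference, which TEF was chosen for.

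**Figure D5:**
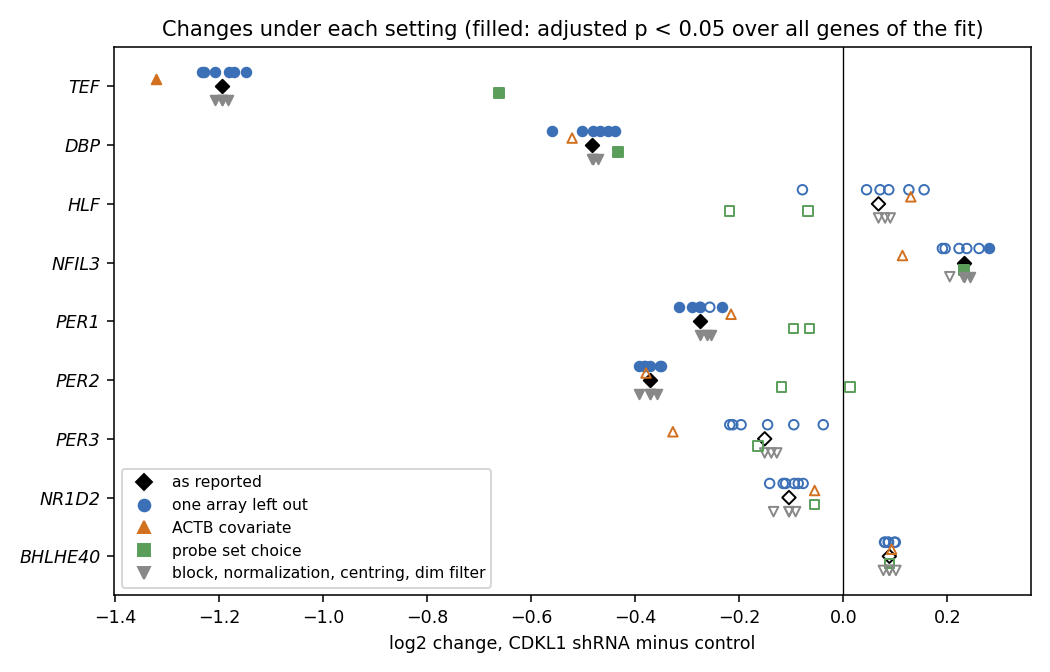
Log2 change (CDKL1 shRNA minus control) of the 9 genes as reported (black) and under each alternative; filled markers are called at an adjusted p below 0.05 over all genes of that fit. TEF stays below -0.6 in every setting that gave it a value, while PER1 and PER2 come near 0 with another choice of probe set.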

How the data were processed

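Total RNA from 6 DLD1 samples was measured on Affymetrix arrays. Values are log2 expression that the authors made with RMA, per the submitters' processing notes: background correction, quantile normalisation and summary of probes to 1 value per probe set. RMA compresses changes of dim probe sets and assumes that most genes do not change. Version and settings: not given in the sources used here.

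Of 49395 probe sets, 44988 had 1 gene symbol in the platform's annotation, 1832 several and 2473 none, and 102 were controls. Each of 18132 genes was read from its probe set with the highest mean over all arrays, with no dim filter. Group was the only term in limma 3.58.1 (R 4.3.3, lmFit and eBayes, two-sided), adjusted over all genes. Data were also simulated for 18132 genes, with independent noise and far fewer changed genes than the 3040 called here. In them 60% of 1.25-fold and 94% of 1.5-fold changes were recovered, and 5 unchanged genes were called. These rates do not carry over to the real arrays. Python 3.11.15 with pandas 2.3.3 made the tables and matplotlib 3.10.9 the figures. The number of arrays limits precision.

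The members and the gene lists were chosen with earlier results of these data known. Named genes were all members, called list genes, up to 3 bright uncalled genes per list, the 5 nearest to TEF, and CDKL1. CLOCK, BMAL1, CYP7A1, TSHB and the cell type markers named are outside this rule and were chosen after their values were seen. Of the 6 value columns 0 were left unused. Alternatives were a replicate block, a further quantile normalisation, omission of each array, centring on array medians, other probe set choices, a filter on dim genes and the ACTB covariate.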

Additional observations from a re-analysis of the deposited data

How the results depend on the processing

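Over the 9 genes and their alternatives, 88 of 109 values kept their direction and side of the threshold. A further 17 kept their direction but lost the call, 0 gained it and 4 turned sign. Of those that turned sign, the PER2 value also lost its call. TEF kept its call in all 12 alternatives that gave it a value (-1.32 to -0.66). These refit the same arrays by which TEF was chosen, so they are no separate evidence of its fall. None of them read its second probe set (-0.13) alone. DBP kept its call in 10 of 11 alternatives, losing it with the ACTB covariate. The 4 turned signs were HLF without control replicate 2 (-0.079; 0.16 without control replicate 3, the other end of its range), with the mean of all probe sets (-0.069) and with probe sets without a suffix (-0.22), and PER2 with probe sets without a suffix (0.013). TEF, DBP, PER3 and NR1D2 have no such probe set. The cause of these differences was not tested.

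Counts of called genes moved by over 1.5 times in some of the following settings, and the ranges and counts given also hold smaller moves. With 1 array left out they were 1633 to 2399 for all genes (3040 as reported), 3 to 5 for the members (5), 2 to 4 for the core machinery (4), 0 for the D-box targets (1), 1 to 2 for the other clock-regulated genes (2) and 0 for the C/EBP genes (1). With the ACTB covariate they were 219, 1, 0, 0, 1 and 0 in the same order. With probe sets without a suffix, 581 of 8354 genes were called. By list, calls were 0 of 5 members, 0 of 1 core gene and 0 of 3 D-box targets. Of the other clock-regulated genes 2 of 6 were called, and of the C/EBP genes 0 of 3. The mean of all probe sets called 2948 of 18132 genes, with 3 members, 2 core genes, 5 other clock-regulated genes and 0 C/EBP genes. The filter on dim genes called 3991 of 9066 genes. In that fit 3 of 5 members, 6 of 9 core genes and 2 of 3 D-box targets were called. So were 4 of 7 other clock-regulated genes and 2 of 5 C/EBP genes. A further quantile normalisation called 3231 genes, with 4 other clock-regulated genes. Centring on array medians called 2771 genes, with 0 D-box targets and 0 C/EBP genes. With the replicate block 1803 genes were called, with 2 core genes, 0 D-box targets, 1 other clock-regulated gene and 0 C/EBP genes, and 4 members, as NFIL3 (0.23) was not called; RORA (-0.35) and TIMELESS (-0.29) were not called either. Samples with the same number did not deviate together (r = -0.03, -0.12 and 0.07 across genes, which are not independent replicates). These values cannot tell whether such samples share more than a number. With 3 arrays per group, small differences, such as that of NFIL3, are at the limit of what these arrays resolve.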
